A study of Drosophila melanogaster with 3 samples.

Results

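The regions described here are 277 summits of Fruitless (Fru) binding that lay at the annotated starts of noncoding genes and away from any protein-coding start, out of 8996 summits in the authors' thresholded list. A summit is the position of highest signal in a called region, and it was taken when it fell within 500 bp of a transcription start site (TSS) of a gene that is neither protein-coding, nor a pseudogene, nor a transposable element, with no protein-coding TSS within 500 bp. These summits made up 3.08% of the list and 7.68% of its 3606 promoter summits. They were set beside 2232 summits with 1 protein-coding gene in reach and 1097 summits shared by several genes of which at least 1 is protein-coding. The other 5390 summits lay away from promoters.

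The data are chromatin immunoprecipitation sequencing (ChIP-seq) of whole Drosophila melanogaster larvae at the wandering stage of the third instar, males and females pooled and of unknown age. All animals carried a fru-MiMIC-GFP insertion, in which an eGFP exon placed in a fru intron tags the protein made by the gene at its own locus, and the fusion was precipitated with an anti-GFP antibody. The 3 biological replicates form 1 group, so there is no comparison between conditions, and a control experiment that the labels name was not analysed here. Since whole animals were used, the tissues that gave rise to a region cannot be told apart.

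The fru gene makes several transcription factors with a BTB domain and zinc fingers, known from the control of male courtship. Noncoding genes fall into several classes. Long noncoding RNAs (lncRNAs) and antisense RNAs are transcribed by RNA polymerase II like messenger RNAs, and some lncRNAs are the precursors from which microRNAs (miRNAs) are cut. Spliceosomal small nuclear RNAs (snRNAs) are short, highly expressed RNAs whose promoters carry a dedicated element upstream of the start, the proximal sequence element A (PSEA), and transfer RNAs (tRNAs) are made by RNA polymerase III from promoters inside the gene. For miRNAs, tRNAs, snRNAs and small nucleolar RNAs (snoRNAs) the annotated TSS is the end of the annotated RNA or hairpin, so for miRNAs and for snoRNAs cut from introns it is not a mapped start of transcription. Mature miRNAs have entries of their own, whose ends count as starts too.

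The windows of 101 bp centred on a summit are shown for members that the text returns to, with the dm6 sequence taken from RefSeq. They are strong lncRNA and antisense members, the strongest tRNA member, a pair of snRNA genes and members at lncRNAs that hold a miRNA. Capitals mark matches, on either strand, to any of 10 words that were searched. Windows without capitals hold none of them.
lncRNA:CR31044 (chr3R:29214347-29214447, plus strand): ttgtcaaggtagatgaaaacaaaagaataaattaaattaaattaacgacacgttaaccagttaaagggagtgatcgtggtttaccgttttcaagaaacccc
lncRNA:CR46102 (chr3R:25738141-25738241, plus strand): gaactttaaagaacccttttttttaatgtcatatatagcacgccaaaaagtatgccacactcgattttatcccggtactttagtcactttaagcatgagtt
lncRNA:CR45054 (chr3R:10082869-10082969, plus strand): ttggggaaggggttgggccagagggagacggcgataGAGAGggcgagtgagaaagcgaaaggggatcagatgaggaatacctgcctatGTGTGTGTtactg
asRNA:CR45908 (chr3R:7075759-7075859, plus strand): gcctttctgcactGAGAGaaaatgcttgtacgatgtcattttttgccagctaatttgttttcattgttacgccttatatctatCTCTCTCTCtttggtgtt
lncRNA:CR44331 (chr3R:8114065-8114165, plus strand): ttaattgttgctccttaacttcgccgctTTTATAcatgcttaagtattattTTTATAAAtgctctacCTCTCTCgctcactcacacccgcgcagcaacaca
lncRNA:CR43626, summit nearer the start (chr3L:3249084-3249184, plus strand): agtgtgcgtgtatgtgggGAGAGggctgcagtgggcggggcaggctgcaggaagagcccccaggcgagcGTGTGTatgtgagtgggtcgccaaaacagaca
tRNA:Gln-TTG-2-1 (chrX:3427699-3427799, plus strand): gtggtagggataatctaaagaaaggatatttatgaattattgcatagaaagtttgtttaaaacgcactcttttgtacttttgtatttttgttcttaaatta
snRNA:U4:39B (chr2L:21215180-21215280, plus strand): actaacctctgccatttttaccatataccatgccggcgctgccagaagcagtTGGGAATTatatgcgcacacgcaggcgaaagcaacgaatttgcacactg
snRNA:7SKa, upstream summit (chr3R:7475020-7475120, plus strand): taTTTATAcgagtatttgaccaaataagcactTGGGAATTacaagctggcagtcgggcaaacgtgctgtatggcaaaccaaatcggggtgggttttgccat
lncRNA:CR43334, summit nearer the start (chr3L:628411-628511, plus strand): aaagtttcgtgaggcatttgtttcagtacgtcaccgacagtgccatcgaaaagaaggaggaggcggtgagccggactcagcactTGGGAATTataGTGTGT
lncRNA:CR43857 (chr2L:7423470-7423570, plus strand): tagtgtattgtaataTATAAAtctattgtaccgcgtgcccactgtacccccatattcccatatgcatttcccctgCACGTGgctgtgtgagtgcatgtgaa

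The 6 mature miRNAs below, cut from lncRNAs with a member, are shown with the seed, bases 2 to 8, in capitals, because the strongest member of all lies at the lncRNA of the first pair. The mature products of mir-279 and mir-996 have the same seed, GACUAGA, and both hairpins lie in lncRNA:CR31044. The other 4 have seeds of their own among the 6. The sequences were read from the RefSeq annotation and the dm6 genome.
mir-279 3p (chr3R:29215651-29215672, plus strand): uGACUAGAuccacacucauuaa
mir-996 3p (chr3R:29217244-29217265, plus strand): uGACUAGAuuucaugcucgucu
mir-282 5p (chr3L:3251038-3251061, plus strand): uAGCCUCUacuaggcuuugucugu
mir-276a 3p (chr3L:10365281-10365302, plus strand): uAGGAACUucauaccgugcucu
mir-275 3p (chr2L:7425853-7425875, plus strand): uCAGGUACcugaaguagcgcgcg
mir-ban 3p (chr3L:642259-642281, plus strand): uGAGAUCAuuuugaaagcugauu

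The value behind each region is the authors' signal value, a score of their own with no fixed range, so regions are given by their place in a list, with place 1 for the highest score. Each replicate has a list of 30000 regions, of which the strongest 8996 were used to match the thresholded list in length. Depth is unknown, because the lists hold no read counts. All 8996 thresholded regions are the 8996 strongest of the pooled list. The same rule found 264, 274 and 278 summits in the strongest 8996 regions of replicates 1, 2 and 3, a mean of 272 ± 7.21 (SD, n = 3). They made up 7.39%, 6.77% and 7.80% of the promoter summits of each replicate, 7.32% ± 0.518 (SD, n = 3). The members are not independent of each other. They lie at least 199 bp apart, 24 gaps between neighbouring members were under 500 bp, and 16 members shared their region with another summit.

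By the nearest gene, 206 members (74.4%) lay at lncRNAs, 26 (9.39%) at antisense RNAs, 13 at miRNAs, 13 at tRNAs, 9 at snRNAs, 7 at snoRNAs and 3 at other noncoding genes. No member lay at a ribosomal RNA gene. A single noncoding gene was in reach of 256 members, and the other 21 had up to 4. Within 500 bp of a member lay 269 noncoding genes. Among the 247 genes that were nearest to a member, 26 had 2 members and 2 had 3. The genes with 3 members were lncRNA:CR44588, whose nearest protein-coding gene is the opsin gene Rh5, and lncRNA:CR44605 near CG5693.

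The strongest member lay at lncRNA:CR31044 (FBgn0051044, 3R 29214562 to 29219667, plus strand), the lncRNA that holds mir-279 and mir-996. Its region spanned 3R 29214060 to 29214675, outside protein-coding genes, with the summit 165 bp upstream of the start. It stood at place 32 of the thresholded list with a signal value of 2682, and at places 32, 40 and 36 in replicates 1, 2 and 3. The replicates gave it signal values of 799, 771 and 1126, each on the scale of its own list. It was the highest of the 277 in the pooled list, and its places differed by 8 between replicates.

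Next came 2 members in introns of protein-coding genes. lncRNA:CR45997 lies in an intron of mbl, which encodes the splicing regulator Muscleblind, on the same strand. Its summit lay 402 bp downstream of the start of the lncRNA, which is 410 bp long, so near its other end. It held place 87, and places 73, 99 and 84 in replicates 1, 2 and 3. lncRNA:CR46102 lies in an intron of LpR2, a lipophorin receptor gene, on the opposite strand, with the summit 164 bp downstream of the start. It held place 88, and places 66, 108 and 109 in the 3 replicates. Both stood near the top of every replicate list.

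Of the 20 strongest members, 15 lay at lncRNAs, 3 at antisense RNAs, 1 at an snRNA and 1 at a tRNA. All 20 were found among the strongest 8996 regions of each replicate. Of all thresholded regions at places up to 2812, a mean of 97.6% were found per replicate, so this was not particular to the members. Of the 20 members, 12 were in introns of protein-coding genes, 7 outside them and 1 in a UTR exon. lncRNA:CR45054 (place 121) and lncRNA:CR44676 (place 127) lay outside protein-coding genes, 7546 and 8401 bp from the nearest protein-coding TSS. That of lncRNA:CR44676, CG9300, was also nearest to the members at lncRNA:CR44677 (place 1146) and lncRNA:CR45916 (place 6356). lncRNA:CR45668 (place 299) lay on X, with its summit 634 bp from a start of Act5C, a cytoplasmic actin gene. lncRNA:CR44331 (place 351) lay in puc, which encodes a phosphatase of JNK signalling. lncRNA:CR46036 (place 360) and lncRNA:CR46035 (place 603) lay in osa, which encodes a subunit of the Brahma chromatin-remodelling complex, and a further summit at place 4293 gave osa 3 members, the most in any protein-coding gene.

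Other hosts among the 20 were named by the same rule. lncRNA:CR34052 (place 453) lies in Raf, a kinase gene of the MAP kinase pathway, lncRNA:CR44478 (place 513) in Socs36E, a negative regulator of JAK/STAT signalling, and lncRNA:CR44409 (place 670) in Dif, a transcription factor gene of the Toll pathway. lncRNA:CR44867 (place 265) lies in beat-Ib, a member of the beat family of cell surface proteins. lncRNA:CR44715 (place 587) lay 4613 bp from scyl, a gene of growth control. Of the 20, 8 lay at lncRNAs inside a protein-coding gene that runs on the opposite strand.

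**Figure D1:**
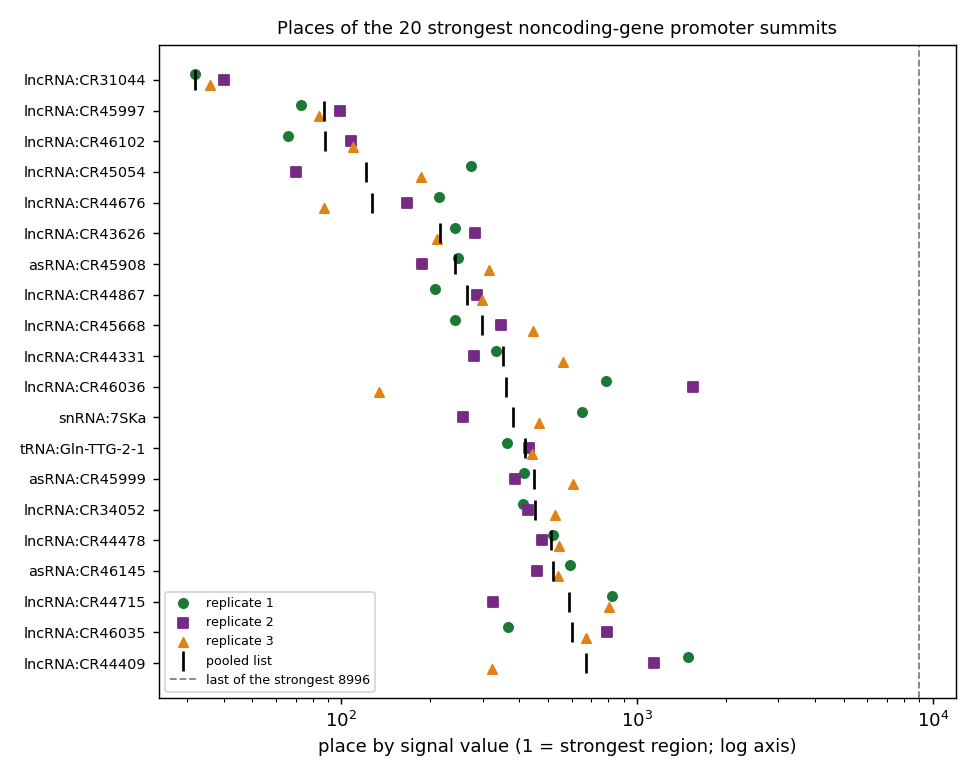
Places of the 20 strongest members in the pooled list (black bars) and in replicates 1, 2 and 3 (circles, squares and triangles), on a log axis where 1 is the strongest region of a list. All points lie left of the dashed line at place 8996, and the widest spread is that of lncRNA:CR46036, at places 783, 1549 and 134.

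The spread between replicates was not the same for all strong members. lncRNA:CR46036 held places 783, 1549 and 134 in replicates 1, 2 and 3, and lncRNA:CR44409 held places 1486, 1140 and 323. By contrast tRNA:Gln-TTG-2-1 held places 363, 430 and 441. Replicate 3 ranked both of the spread members above the other replicates, and the order differed for lncRNA:CR45054, at places 275, 70 and 186.

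Where the members sit among genes was counted next. Outside protein-coding genes lay 186 members (67.1%), 83 (30.0%) were in introns, 7 (2.53%) in UTR exons and 1 (0.361%) in coding sequence, at asRNA:CR45868 in bip1. An exon of a noncoding gene held 108 summits (39.0%). The nearest protein-coding TSS was a median of 3044 bp away, with a range of 504 to 58768 bp, and 42 members (15.2%) had one within 1000 bp. The farthest was the stronger summit of lncRNA:CR46006, the lncRNA of mir-276a. Of the 269 genes with a member, 81 (30.1%) lay wholly inside a protein-coding gene, against 1242 of the 3229 without one (38.5%). Of the genes inside, 51 of 81 (63.0%) ran on the opposite strand only, against 617 of 1242 (49.7%) of the genes without a member. Both shares differed between classes, and the part of the class mix in them was not tested. Inside a protein-coding gene lay 21.8% of lncRNAs with a member and 24.4% of those without, 65.2% and 44.6% of tRNAs with and without one, and 44.4% and 80.4% of snoRNAs with and without one. For antisense RNAs these shares were 32.0% and 54.2%, and for miRNAs 53.8% and 64.4%, while snRNAs had equal shares. Of the lncRNAs inside, 73.2% with a member and 60.8% without one ran on the opposite strand only. For the tRNAs inside these shares were 73.3% and 53.8%. Such antisense RNAs numbered 7 of 8 with a member and 246 of 259 without. The strand share was also lower with a member for miRNAs and snRNAs, and higher for snoRNAs. lncRNA genes with a member had a median length of 646 bp and those without one 663 bp. The reach of 500 bp can thus span a whole short gene. At lncRNA:CR44478, 402 bp long, the summit lay 388 bp from the start. Several annotated starts, which give a gene more chances to have a summit, were listed for 9.04% of lncRNA genes with a member and 4.38% of those without. No member lay within fru itself.

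The members in introns stood at a median place of 3743, and those outside protein-coding genes at 4244. Among the strongest 900 regions of the list were 21.7% of the members in introns and 6.99% of those outside. With the rule applied to each replicate, the median places inside protein-coding genes were 3606, 4153 and 3777, and outside them 5057, 4425 and 4183. Those inside stood higher in the list in 3 of 3 replicates, by 710 places on average (difference -710 ± 646, SD, n = 3). The exact sign-flip permutation test over replicates gave p = 0.25, two-sided, which is the smallest p that 3 replicates allow. Without replicate 1 the difference was -339. With a TSS distance of 250 bp it was -453, and with 1000 bp it was -268 with an exact permutation p of 0.50, so that the agreement of the 3 replicates was lost.

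Some lncRNAs carry miRNA hairpins, and these were looked at as a group after the strongest member had been seen, so the counts are a description. The annotation holds 37 lncRNA and antisense genes with a hairpin inside on their strand, of which 34 are lncRNAs. A summit lay within 500 bp of a start of 14 of them (37.8%), and all 14 had a member. Of the 2411 lncRNA and antisense genes with no hairpin inside, 322 (13.4%) had a summit, and of both kinds together 336 of 2448 (13.7%). In the strongest regions of the 3 replicates the shares were 34.2% ± 1.56 with a hairpin and 13.4% ± 0.127 without (SD, n = 3). The genes with a hairpin had a median length of 6436 bp, against 712 bp without. The members at lncRNA:CR43650, lncRNA:CR46006 and lncRNA:CR44206 lay at later starts, 1478 bp or more from the first start of the gene. The parts of length and of the number of annotated starts in the difference between these shares were not tested.

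After lncRNA:CR31044, the strongest of these was lncRNA:CR43626 (3L 3249340 to 3254504), which holds mir-282. It had 2 summits in 1 region, 417 and 206 bp upstream of its start, at places 216 and 825. The stronger held places 243, 284 and 211 in replicates 1, 2 and 3, and the other 2336, 912 and 622. lncRNA:CR43650, which holds mir-8, a miRNA known for roles in growth, had a summit 116 bp upstream of a start at place 754, and at places 661, 579 and 1062 in the replicates. These stood high in each replicate list.

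lncRNA:Hsromega, the heat-shock RNA that organises nuclear omega speckles and holds mir-4951, had 2 summits in 1 region, 169 and 373 bp downstream of its first annotated start. The first, at place 1419, had places 1398 and 1284 in replicates 1 and 3 and no summit within 100 bp in replicate 2. The other, at place 5875, stood at place 1776 in replicate 2 and at 16199 and 13037 in replicates 1 and 3. In replicate 2 the stronger summit was thus the one farther into the gene.

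lncRNA:CR46006, with mir-276a, had summits at places 1955 and 4249, 489 and 94 bp upstream of different starts. The stronger stood at places 1818, 1667 and 2543. lncRNA:CR43857, with mir-275, had its summit 300 bp upstream of the start at place 2065. That summit held places 2580 and 1381 in replicates 1 and 3, with no summit within 100 bp in replicate 2. Among its strongest regions, replicate 2 did have a summit within 500 bp of a start of this gene. A further summit, 444 bp upstream of the mir-275 hairpin, stood higher, at place 1084, and at places 565, 1260 and 1389 in the replicates.

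lncRNA:CR43334 is the precursor of bantam, a miRNA known to promote growth and to block cell death. Its 2 summits, at places 3903 and 8436, lay 173 bp upstream and 26 bp downstream of its first annotated start. The second was 9 bp upstream of another of its starts. The stronger held places 7429, 2081 and 4060 in the replicates. Of the rest, asRNA:CR46194 (mir-281) stood at place 1874, lncRNA:CR44206 (mir-184) at 2587 and 6387, lncRNA:CR43651 (mir-14) at 3805 and lncRNA:CR43314 (mir-bft) at 4482. The weakest were lncRNA:CR45916 (mir-9a) at 6356, lncRNA:CR42651 (mir-10) at 7427 and lncRNA:CR43836 (mir-31b) at 7651. lncRNA:let7C, the precursor of let-7 and mir-125, had no summit within 500 bp of a start, nor did lncRNA:iab8, lncRNA:iab4 or the lncRNAs of mir-1 and mir-124.

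**Figure D2:**
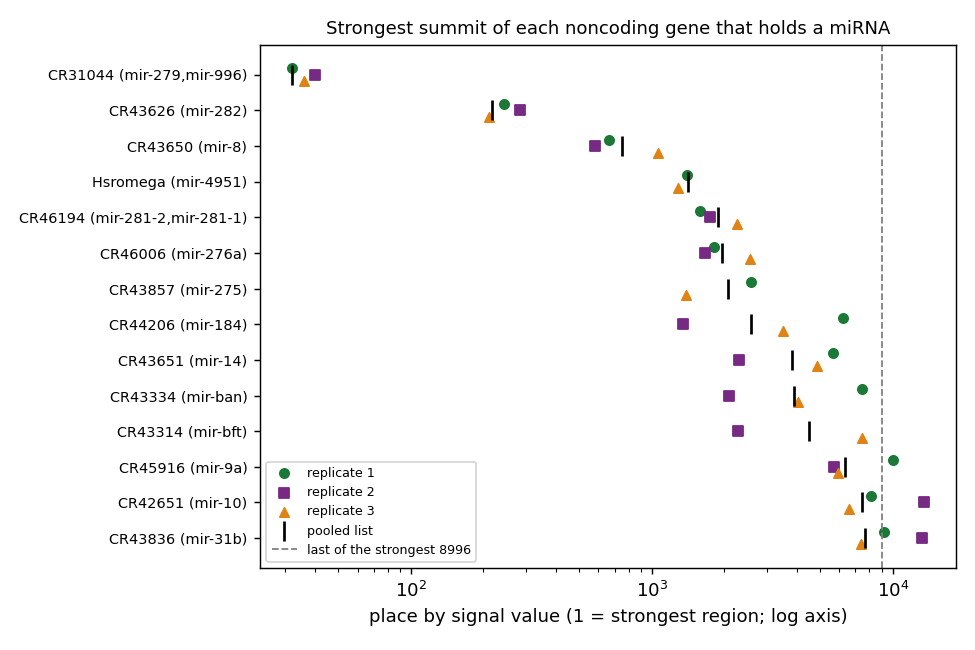
Places of the strongest summit of each of the 14 lncRNA or antisense genes that hold a miRNA and have a member, in the pooled list (black bars) and in replicates 1 to 3 (symbols), on a log axis; a missing symbol means no summit within 100 bp in that replicate. lncRNA:CR31044, with mir-279 and mir-996, lies at places 32 to 40 in every list, and the genes at the bottom lie near or past the dashed line at place 8996 in at least 1 replicate.

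The hairpins themselves were reached by 13 members. After mir-275 the strongest were mir-9377 in Tis11 at place 1601, with places 1998, 1670 and 1623 in replicates 1, 2 and 3, mir-2491 at place 3842 and mir-4962 in Tlk at place 4618. mir-14 had 2 summits, at places 7152 and 8945, 80 bp upstream and 122 bp downstream of the hairpin's start. mir-34, a miRNA known from ageing studies in the fly, had one at place 7495, and mir-279 one at place 8664, 306 bp upstream of its hairpin. No member within 500 bp was found for the hairpins of bantam, let-7, mir-8, mir-9a, mir-7, mir-1 or mir-184. The nearest summit to the mir-8 hairpin lay 859 bp away and that to the bantam hairpin 1433 bp away.

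The 26 antisense members had a median place of 3642. The strongest, asRNA:CR45908, lay in an intron of CG1943, 322 bp upstream of its start, at place 243, and at places 247, 187 and 316 in replicates 1, 2 and 3. asRNA:CR45999 followed at place 449 (415, 385 and 607 in the replicates). asRNA:CR46145, in FER, a tyrosine kinase gene, had its summit 10 bp downstream of the start at place 518 (594, 457 and 541), and asRNA:CR46044, in Septin2, stood at place 786 (759, 685 and 870). These 4 were found at high places in all 3 replicates. Many antisense genes share their promoter region with the gene on the other strand. Of the 79 antisense genes with any summit, 54 had only summits that also lay near a protein-coding start and so fell outside the rule.

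In all, 9 members lay at 8 of the 32 snRNA genes (25.0%, Wilson 95% interval 13.3 to 42.1%), where 11.9% of all noncoding and 24.6% of protein-coding genes had a summit. In the replicates 9, 10 and 10 of the 32 had a summit. The strongest was snRNA:7SKa, the RNA that holds the elongation factor P-TEFb inactive, with 2 summits in 1 region. One lay inside the gene, 132 bp from its start, at place 380 and at places 652, 257 and 467 in replicates 1, 2 and 3. The other lay 74 bp upstream at place 2903, and its places of 25972, 1006 and 8722 were far apart. The second copy, snRNA:7SKb, had no summit within 500 bp.

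The spliceosomal snRNAs with a member were snRNA:U4:39B at place 877 (1156, 500 and 1083 in the replicates), snRNA:U1:95Ca at 2295 (4595, 2053 and 4014), snRNA:U2:34ABb at 2812 (3367, 2954 and 2927), snRNA:U5:63BC at 3700 (5096, 3752 and 3662) and snRNA:U12, of the minor spliceosome, at 7908 (7968, 8799 and 9236). snRNA:U7, which acts in histone mRNA processing, stood at place 4960 (6332, 4646 and 6212), and snRNA:LU at 6001 (7095, 7192 and 5929). Each was within the strongest 8996 regions of all 3 replicates, apart from snRNA:U12 in replicate 3. Many snRNA genes have near-identical copies.

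The word AATTCCCA, part of the PSEA, was present in 2 of the 9 snRNA windows, those of snRNA:U4:39B and the upstream summit of snRNA:7SKa shown above, where it reads as its reverse complement. It covered 54 to 61 bp upstream of the start of snRNA:U4:39B and 56 to 63 bp upstream of that of snRNA:7SKa, on the strand of each gene. In the 100 bp upstream of the start it was present on the gene's strand in 6 of the 8 snRNA genes with a member and in 22 of all 32 snRNA genes (68.8%), against 17 of 3466 other noncoding genes (0.490%) and 38 of 13968 protein-coding genes (0.272%). The third window with the word was that of the second summit of the bantam lncRNA, where it lay 25 to 32 bp downstream of the nearest annotated start, on the opposite strand. Over all members it was present in 3 windows (1.08%), and over the thresholded list in 0.622%.

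The 13 tRNA members had a median place of 6281, the lowest down the list of any class, and were found in 46.2%, 61.5% and 84.6% of cases among the strongest regions of replicates 1, 2 and 3, 64.1% ± 19.4 (SD, n = 3). The strongest was tRNA:Gln-TTG-2-1 in an intron of CG12535 on X, 226 bp upstream of the tRNA, at place 416. tRNA:Lys-TTT-1-1, in Btk, a tyrosine kinase gene, stood at place 1159 (1093, 1190 and 1363 in the replicates), tRNA:Pro-AGG-1-3 at 1713 (2618, 1484 and 1857) and tRNA:Cys-GCA-1-3 at 4130 (4139, 6391 and 4695). The member at tRNA:iMet-CAT-1-5 (place 8973) was the only one of the 277 found in none of the 3, with places of 10431, 10831 and 9776. The word GTTCGANNC, the B box of tRNA promoters, was present in 2 member windows, both at tRNAs.

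The strongest of the 7 snoRNA members was snoRNA:185 at place 1690 (1913, 1334 and 1636 in the replicates), 53 bp upstream of the annotated end. snoRNA:Or-ACA6, in egr, stood at 2541, snoRNA:Me18S-C1968 at 4031 and snoRNA:Psi18S-525a at 4912. The other 3 members lay at Uhg4, a host gene of snoRNAs (place 1584; 1646, 1726 and 1637), at sisRNA:4, a stable intronic RNA in dpn, a neural stem cell transcription factor gene (place 739; 983, 559 and 860), and at RNaseMRP:RNA, the RNA of an endoribonuclease (place 7734; 5919 and 6641 in replicates 1 and 2, no summit within 100 bp in replicate 3).

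Across the annotation, 416 of 3498 noncoding genes (11.9%) had a thresholded summit of any kind within 500 bp of a start, against 3436 of 13968 protein-coding genes (24.6%). In the replicates the shares were 11.8% ± 0.415 and 25.6% ± 1.56 (SD, n = 3). By class they were 25.0% for snRNAs, 15.7% for antisense RNAs, 13.2% for lncRNAs, 11.7% for tRNAs (34 of 290), 6.15% for miRNAs (16 of 260) and 5.58% for snoRNAs (15 of 269). These shares include summits that also lay near a protein-coding start. A gene with several annotated starts has more chances to have a summit, and the shares were not adjusted for the number of starts. Among genes with no protein-coding TSS within 500 bp of a start, 272 of 2928 (9.29%) had a summit. By class this held for 24.1% of snRNAs, 11.5% of lncRNAs, 10.1% of tRNAs and 6.23% of antisense RNAs (20 of 321). For miRNAs and snoRNAs it was 5.29% and 4.17%. None of the 99 ribosomal RNA genes had a summit. Ribosomal RNA, tRNA and snRNA genes are repeated, and how reads from repeats were placed or filtered is not stated, so this 0 cannot be read as a lack of signal. Neighbouring tRNA genes can share a summit. Some small classes shrank by over 1.5 times when 1 replicate was left out. With peaks required in both remaining replicates, miRNA genes numbered 9 without replicate 1 and 8 without replicate 2, and tRNA genes 18 without replicate 2 and 19 without replicate 3. Other noncoding genes numbered 7 in all, 4 without replicate 1 and 4 without replicate 2.

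**Figure D3:**
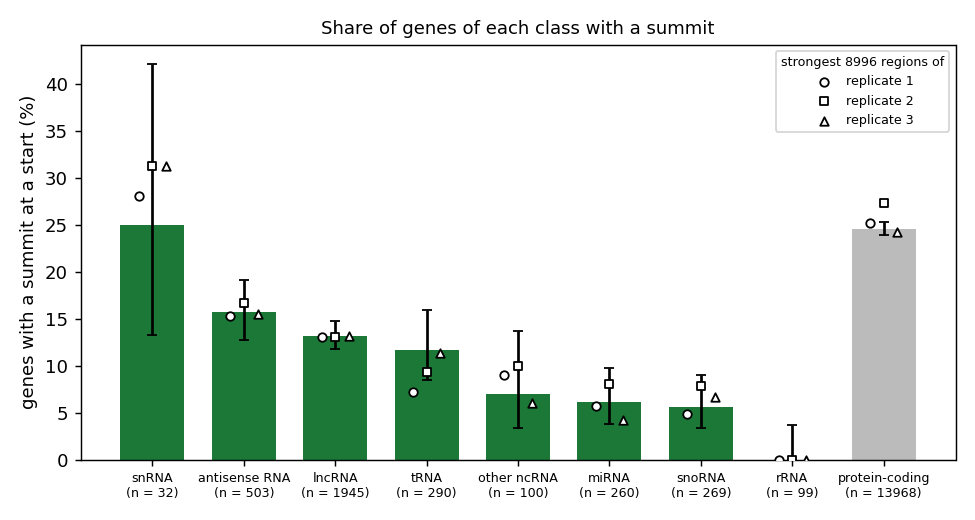
Share of the genes of each class with a summit within 500 bp of a start in the thresholded list (bars, with Wilson 95% intervals) and in the strongest 8996 regions of replicates 1 to 3 (symbols); green bars are noncoding classes and the grey bar protein-coding genes. snRNA genes reach 25.0%, protein-coding genes 24.6%, and the other noncoding classes lie at 15.7% or less. Summits that also lie near a protein-coding start are counted, and the shares are not adjusted for the number of starts of a gene.

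The rule used the distance to a TSS, and shared summits are measured to the nearest of several starts, so the distances are given as a description with no p. The median distance was 211 bp for the members, 157 bp for summits with 1 protein-coding gene and 92 bp for shared ones. Within 100 bp of the TSS lay 23.1% of the members, against 34.6% and 54.9% of the others. Upstream of the TSS lay 54.9% of the members, against 72.5% and 76.1%. In the farthest bin on the gene side, 401 to 500 bp downstream, lay 12.3% of the members, against 2.69% and 0.547%. In replicates 1, 2 and 3 the median distances were 217, 208 and 220.5 bp for noncoding starts, and 121, 105 and 133 bp for both kinds of protein-coding promoter summits together. These values follow the limit of the rule. The mean gap of 95.5 bp between the medians over replicates was 31.7 bp with a limit of 250 bp and 260 bp with 1000 bp. The shares upstream in replicates 1, 2 and 3 were 57.95%, 53.28% and 56.83% for noncoding starts against 76.07%, 68.58% and 75.59% for protein-coding ones.

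**Figure D4:**
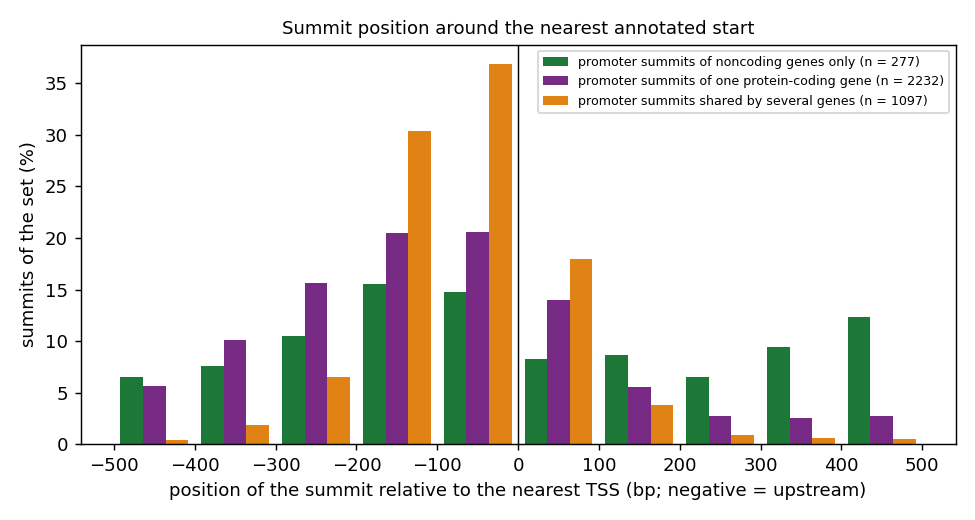
Position of the summit relative to the nearest TSS in bins of 100 bp (negative values are upstream), as a share of the summits of each set: members in green, summits with 1 protein-coding gene in purple and shared summits in orange. The members spread over the whole range, with 12.3% at 401 to 500 bp downstream, where the other sets have 2.69% and 0.547%.

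The rule has an edge at 500 bp. Just inside were mir-4968 (place 4920), with its summit 499 bp from the start of a mature miRNA entry and 587 bp from that of the hairpin, and lncRNA:CR45916, also 499 bp (place 6356). Just outside were lncRNA:CR45392 at 501 bp (place 4703) and lncRNA:CR44775 at 503 bp (place 8157). lncRNA:CR45916 has a summit near the same position in replicates 2 and 3 at places 5688 and 5906, but in none of the replicates was a strong summit within 500 bp of its start.

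The members spanned the list in strength. Their median place was 4099, with quartiles at 2066 and 6356, and their median signal value 217, against 4428 and 204 for summits with 1 protein-coding gene, 3338 and 254 for shared summits, and 4498 and 201 for the whole list. In the replicates the median places were 4623, 4393 and 4148 for noncoding starts, and 3910, 4330 and 4185 for protein-coding promoter summits. The difference, 246 ± 408 places (SD, n = 3), was within the spread between replicates and had its sign in 2 of 3 (exact p = 0.500), and without replicate 1 it was 13.0. Among the strongest 100 regions of the list were 3 members, close to their share of 3.08% in the whole list. Among the strongest 1000 were 33 (11.9% of the members). The strongest 900 held 11.6% of the members, against 12.6% of summits with 1 protein-coding gene and 14.0% of shared summits. Of the summits away from promoters they held 8.03%.

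Most members were found again in single replicates. Among the strongest 8996 regions of replicates 1, 2 and 3, a summit within 100 bp was found for 213, 219 and 240 members (76.9%, 79.1% and 86.6%), against 78.3%, 77.9% and 83.4% of the whole list. The means were 80.9% ± 5.12 for the members and 79.9% ± 3.04 for the list (SD, n = 3). All 3 replicates held 158 members (57.0%), against 58.0% of the list. In the whole replicate lists of 30000 regions, 227 members (81.9%) were found in all 3, and each member in at least 1. The members split by pooled strength are a description, since the pooled score is made from the same replicates. Of the 93 strongest members, at places up to 2812, 98.2% ± 2.24 were found, against 97.6% ± 0.276 of all regions at these places. Of the next 92, up to place 5499, 85.9% ± 8.21 were found, against 89.6% ± 3.69, and of the weakest 92, 58.3% ± 6.18 against 58.1% ± 4.91 (SD, n = 3). All 3 replicates held 89, 57 and 12 of these members.

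**Figure D5:**
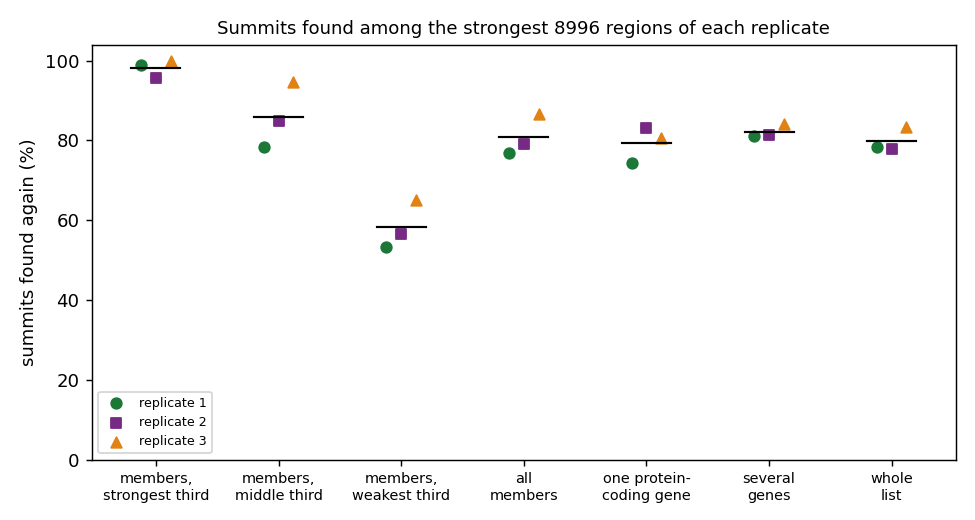
Share of summits with a summit within 100 bp among the strongest 8996 regions of replicates 1 to 3 (symbols; the line is their mean) for the members split by strength, all members, both kinds of protein-coding promoter summits and the whole list. The mean lies at 98.2% for the strongest members and 58.3% for the weakest, and at 80.9% for all members against 79.9% for the list.

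Words known from promoters were then counted in windows of 101 bp. Of the words known from core promoters of protein-coding genes, TATCGATA and GGTCACAC were not found at a member, while TATAAA was, as given below. TATCGATA, bound by the factor DREF, was present in 0 of 277 windows, against 1.66% of summits with 1 protein-coding gene, 5.47% of shared summits and 1.21% of the whole list. At summits away from promoters it was present in 0.223%, so a low share was not particular to the members. A count of 0 allows a share of up to 1.08% (3 counts), and the Wilson 95% interval reaches 1.37%, above the share of the list, counting error only. GGTCACAC, bound by the factor M1BP, was present in 0 of 277, with the same limits, against 1.48%, 2.19% and 0.856%. At summits away from promoters it was present in 0.371%. In replicates 1, 2 and 3 TATCGATA was at 0% in each at noncoding starts and at 3.48%, 3.23% and 1.92% at protein-coding ones, a difference of -2.88 ± 0.840 percentage points (SD, n = 3). For GGTCACAC the values were 0% in each, and 2.06%, 2.12% and 1.74%, a difference of -1.97 ± 0.207. Both differences had their sign in 3 of 3 replicates, with an exact p = 0.25, the smallest possible. With windows of 100 bp on each side, each word was found in 0.361% of the members, and no such share is given for the other sets.

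CAGCTG, an E-box bound by basic helix-loop-helix factors, was present in 3 member windows (1.08%), against 4.84% of summits with 1 protein-coding gene, 5.83% of shared summits and 3.68% of the list. At summits away from promoters it was present in 2.89%. In the replicates it was at 1.52%, 2.56% and 1.80% at noncoding starts and at 5.54%, 5.75% and 4.84% at protein-coding ones. The difference was -3.42 ± 0.526 percentage points (SD, n = 3), in 3 of 3 replicates (exact p = 0.25). With 100 bp on each side 5.42% of the members held it, which cannot be set beside the shares above, counted in windows of 101 bp.

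The other words were near their share in the list. GAGAG, the core of sites for the GAGA factor, was present in 42 windows (15.2%, Wilson 95% interval 11.4 to 19.9%), against 12.6% of the list, and in 33 of 206 lncRNA windows. The windows of lncRNA:CR45054, asRNA:CR45908 and lncRNA:CR44331 above hold it, that of asRNA:CR45908 on both flanks. TATAAA, the TATA box, was present in 50 (18.1% against 19.2%), ACACAC, a simple repeat, in 18 (6.50% against 6.31%), CACGTG, an E-box, in 4 (1.44% against 0.789%), CAGGTAG, bound by Zelda, in 2 (0.722% against 0.422%) and GTTCGANNC in 2 (0.722% against 0.789%). The counts of the last 3 are too small to tell from the list. Without replicate 2 or without replicate 3, counting members found in both others, GTTCGANNC was at 0%, and AATTCCCA was at 0.538% without replicate 2. Of the 3 strongest members, lncRNA:CR31044 and lncRNA:CR46102 hold none of the 10 words and lncRNA:CR45997 holds TATAAA. The median GC content was 34.7% for the members, 38.6% for summits with 1 protein-coding gene, 33.7% for shared summits and 34.7% for the list. Between noncoding and protein-coding promoter summits of the same replicate it differed by -1.32 ± 0.572 percentage points (SD, n = 3; 3 of 3 replicates, exact p = 0.25), and by -0.165 in the strongest 4498 regions (exact p = 1.00).

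Of 32 noncoding genes listed for their known roles, 6 had a member (18.8%), against 269 of all 3498 (7.69%). The list was chosen by hand with earlier results of these data known, and its mix of classes is not that of the annotation. The shares are thus a description, and their difference was not tested. The 6 genes with a member were lncRNA:Hsromega, snRNA:7SKa, RNaseMRP:RNA, mir-14, mir-34 and mir-279. The other 26 had no summit within 500 bp of a start. Among them were lncRNA:roX1 and lncRNA:roX2, the RNAs of the dosage compensation complex on X, whose nearest summits lay 4613 and 1419 bp away, lncRNA:bxd of the bithorax complex, 3578 bp away, and both 7SL genes of the signal recognition particle. Of the members, 35 lay on X (12.6%), against 18.4% of the promoter summits and 19.0% of the list, while X holds 434 of the 3498 noncoding genes. Chromosome 4 had none, with 27 noncoding genes.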

How the data were processed

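The authors called regions from ChIP reads with a control alignment, as their notes on the deposited files state. Their thresholded list keeps reproducible regions. Its cutoff is not given in the sources used here, nor is the aligner or caller. The deposited signal value is a score of the authors, used only to rank regions within a list. The summit offset was read from the deposited lists, and positions are 1-based on dm6. The lists on dm3 were not used. The number of unused columns of other samples was 0.

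Genes came from Ensembl BDGP6.54 (release 115), which has dm6 coordinates, without pseudogenes and transposable elements. Unnamed entries of mature miRNAs took the name of their hairpin, counted as starts but not as genes. Classes follow gene names. Sequences came from the RefSeq release 6 genome. Words were searched on both strands, and matches of different words may overlap. Python 3.11.15, numpy 2.4.6 and pandas 2.3.3 were used, and the functions were tested on invented data.

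The members, words, lists and tests were chosen with earlier results of these data known. Named genes are those at the 20 strongest members, at the 4 strongest of each class, beside the 500 bp limit, and a list of well-known genes. The group of lncRNAs with a miRNA, the repeated hosts and the upstream scan for AATTCCCA were chosen after values were seen. Each exact p comes from an exact sign-flip permutation test over 3 replicates, on differences within replicates. It takes its smallest value whenever all 3 differences share a sign, whatever their spread. Shares of genes, such as those with and without a hairpin, were not tested. Alternatives were other TSS and match distances, gene starts only, a stricter list, wider windows and leaving out each replicate.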

Additional observations from a re-analysis of the deposited data

How the results depend on the processing

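Comparisons between summit sets were made within each replicate, so they are paired by replicate, and with 1 group there is no other pairing. The number of members was 180 with a TSS distance of 250 bp, 149 in the strongest 4498 regions of the list and 158 when all 3 replicates had to hold them, and 179 to 189 when both others had to hold them with 1 replicate left out. The mean share found in replicates was 88.1% with summits matched within 250 bp, 88.4% with regions that overlap by 1 bp, 93.4% in whole replicate lists, 48.7% with the strongest 4498 regions of each replicate, and 78.0% to 82.9% with 1 replicate left out. The median place was 4390 with a TSS distance of 1000 bp, and 4210 to 4440 as a mean of replicate medians with 1 replicate left out. GAGAG was found in 24.9% of members with 100 bp on each side and in 11.3% to 13.8% with 1 replicate left out. Noncoding genes with a summit numbered 245 at 250 bp, 693 at 1000 bp and 244 in the strongest 4498 regions. The cause of these shifts, beyond the looser or stricter rule itself, was not tested.

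Between noncoding and protein-coding promoter summits the differences in place, TATCGATA, GGTCACAC and CAGCTG kept their direction under a TSS distance of 250 or 1000 bp, with the strongest 4498 regions and with each replicate left out. So did that in GC content, which shrank to -0.165 in the strongest 4498 regions (exact p = 1.00). The difference in place, however, had its sign in only 2 of 3 replicates and was 13.0 without replicate 1. Small differences in the other words changed sign. With a TSS distance of 1000 bp they were -0.275 percentage points for GAGAG, -0.0917 for CACGTG, -1.16 for TATAAA, -0.742 for ACACAC and -0.0275 for AATTCCCA. With 250 bp they were -0.0100 for CAGGTAG and 0.0718 for GTTCGANNC. With the strongest 4498 regions TATAAA was at -2.15. With 1 replicate left out it was at -0.691 to 0.606, and ACACAC at -0.0489 to 0.756. The cause was not tested. With 3 replicates no test could reach a p of 0.05, depth is unknown, and intervals cover counting error only.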
